A study of Mus musculus with 35 samples.

Results

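Trimethylation of histone H3 at lysine 4 (H3K4me3) and acetylation of histone H3 at lysine 27 (H3K27Ac) were compared in wild-type mouse retinae at postnatal day (P) 21. The members were all peaks of the 4 wild-type P21 ChIP-Seq libraries of these marks, with 2 libraries per mark, and every peak entered the comparison. These were 107209 of the 723032 peaks and domains listed for 27 libraries of the series (14.8%), against 89734 at P0 and 106936 at P14 for the same marks. Each peak was classed by whether it overlapped, by at least 1 bp, peaks of the other mark in both replicates, in 1 replicate or in none.

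H3K4me3 is deposited by SET1 and MLL methyltransferases around transcription start sites and is best known as a mark of promoters, including promoters that are poised rather than transcribed. H3K27Ac is deposited by the acetyltransferases p300 and CBP at active promoters and at active enhancers. The same lysine 27 can instead be trimethylated by the Polycomb repressive complex PRC2, and promoters that carry H3K4me3 together with H3K27me3 are called bivalent. At P21 the mouse retina is largely differentiated, and rod photoreceptors are its most numerous cells.

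The study profiled chromatin in developing retina to relate binding of Brg1, the ATPase of the BAF chromatin remodelling complex, to active and repressed chromatin. All P21 libraries were made from whole wild-type retinae with the antibodies that the labels name H3K4me3-AB2 and H3K27Ac-AB2. Beside them, 2 libraries of H3K27me3 domains (antibody H3K27me3-AB1) from wild-type P21 retinae, 2 libraries per active mark from wild-type P0 and from wild-type P14 retinae, and 1 anti-FLAG library from retinae of Brg1-FLAG mice at P0, a knock-in strain whose endogenous Brg1 carries the tag, were used as readouts that did not define the classes. The study calls its histone libraries biological duplicates, and the labels do not say which animals gave them, so errors below rest on the spread between these libraries. The SEs from limma are moderated, which means that they also draw on the spread of the other tested regions. In whole retinae, a mark carried by few cells and a mark carried weakly by many cells cannot be told apart.

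The lists give no read depth, which is therefore unknown, and list size stands in its place. H3K4me3 replicate 1 held 24124 peaks covering 35.1 Mb and replicate 2 held 18534 covering 25.1 Mb. H3K27Ac replicate 1 held 18718 peaks covering 16.8 Mb and replicate 2 held 45833 covering 34.4 Mb. The 2 H3K27Ac lists thus stood further apart than the H3K4me3 lists. The smaller list of each mark was nearly contained in the larger one. Of H3K4me3 replicate 2 peaks 99.4% overlapped replicate 1, and 71.0% in the other direction, while 93.8% of H3K27Ac replicate 1 peaks overlapped replicate 2, and 37.8% in the other direction. Positions are those of the lists, in the mm9 genome build that the submitters' processing notes name. No mm9 gene annotation was used here, so regions are named by position and are not called promoters or enhancers, and the retinal cell types were not checked against marker genes.

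H3K4me3 peaks were higher and longer than H3K27Ac peaks in every library. The median fold enrichment over background was 21.1 and 16.3 in the H3K4me3 libraries and 4.90 and 4.75 in the H3K27Ac libraries, a ratio of the mean medians of 3.87. The median peak length was 1237 and 1235 bp for H3K4me3 against 549 and 485 bp for H3K27Ac, a ratio of 2.39. Both H3K4me3 libraries lay above both H3K27Ac libraries in height and in length, and the exact two-sided permutation test over the 4 libraries gave p = 0.33 for each, the smallest p that 2 libraries against 2 allow. Fold enrichment also depends on antibody and depth, so the ratio of heights is a ratio between these assays. Restricted to peaks that overlapped the other mark in both replicates, the height ratio was 6.69. The H3K4me3 heights were spread widely, with the middle 50% of peaks between 5.91 and 62.0 in replicate 1 and between 6.30 and 27.1 in replicate 2. The H3K27Ac heights were narrow, from 4.07 to 6.69 in replicate 1 and from 3.84 to 6.84 in replicate 2. Higher peaks were longer for both marks, with a Spearman correlation across peaks of 0.86 and 0.77 for H3K4me3 and 0.67 and 0.70 for H3K27Ac. Peaks of 1 library are not independent replicates.

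Most H3K4me3 peaks met H3K27Ac in at least 1 replicate, and a smaller set carried none. In replicate 1, 9915 H3K4me3 peaks overlapped H3K27Ac of both replicates (41.1%, Wilson 95% interval 40.5 to 41.7%, which like all intervals here covers counting error only), 7665 overlapped it in 1 replicate (31.8%) and 6544 in none (27.1%, interval 26.6 to 27.7%). In replicate 2 the corresponding numbers were 8426 (45.5%, interval 44.8 to 46.2%), 6617 (35.7%) and 3491 (18.8%, interval 18.3 to 19.4%). The middle class came almost entirely from the larger acetylation list. H3K27Ac was present in replicate 2 alone at 7571 of the 7665 peaks and at 6570 of the 6617 peaks. Judged by H3K27Ac replicate 2 alone, a mean of 23.3% of H3K4me3 peaks carried no acetylation, and judged by replicate 1 alone 56.4%.

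H3K27Ac peaks divided more evenly between sites with and without H3K4me3. In replicate 1, 10284 overlapped H3K4me3 of both replicates (54.9%, interval 54.2 to 55.7%), 1860 in 1 replicate (9.94%) and 6574 in none (35.1%, interval 34.4 to 35.8%). In the longer replicate 2 list, 18472 overlapped H3K4me3 of both replicates (40.3%, interval 39.9 to 40.8%), 3747 in 1 replicate (8.18%) and 23614 in none (51.5%, interval 51.1 to 52.0%). Acetylation without H3K4me3 was thus the largest class of the larger list and not of the smaller list. With the strongest 18534 peaks of each library this order turned, with 40.4% of replicate 1 and 25.3% of replicate 2 peaks without H3K4me3. Where H3K4me3 was present in 1 replicate, it was replicate 1 at 1855 of the 1860 and at 3726 of the 3747 peaks.

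**Figure D1:**
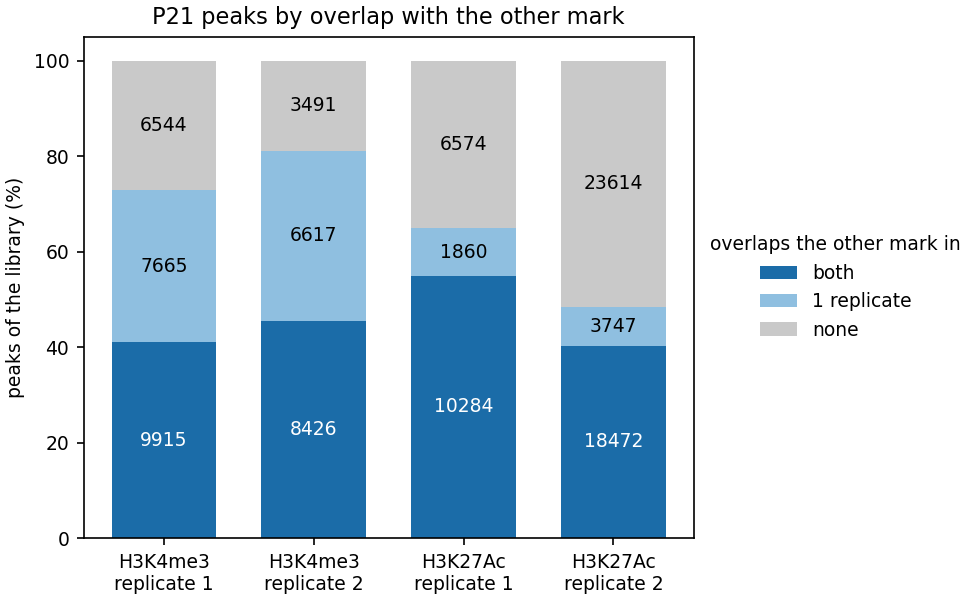
Share of the peaks of each P21 library (vertical axis, percent) that overlapped peaks of the other mark in both replicates (dark blue), 1 replicate (light blue) or none (grey), with the number of peaks written in each bar segment. The dark segment is between 40.3 and 54.9% in the 4 libraries, and the grey segment is largest, 51.5%, in H3K27Ac replicate 2.

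The peaks of each mark that met the other mark in both replicates had higher and longer medians than those that met none. An effect of length on the overlap of the marks was not tested. H3K4me3 peaks with H3K27Ac in both replicates, in 1 replicate and in none had median heights (fold enrichments) of 57.9, 30.3 and 5.74 in replicate 1 and of 24.0, 15.6 and 5.17 in replicate 2. Their median lengths were 1956, 1320 and 499 bp in replicate 1 and 1706, 1122 and 490 bp in replicate 2. The order was the same in both libraries. Among the weakest 20% of H3K4me3 peaks 55.6% and 51.2% carried no H3K27Ac, against 0.104% and 0.351% of the strongest 20%. The share with H3K27Ac in both replicates was 25.3% and 24.8% in the weakest 20% and 75.8% and 74.6% in the strongest 20%. The rise was not steady. In the steps of 20% between these it was 25.8, 23.05 and 55.6% in replicate 1 and 23.6, 41.2 and 63.1% in replicate 2. By length, 81.1% and 85.5% of the longest 20% of peaks carried H3K27Ac in both replicates.

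For acetylation the difference in height between the classes was smaller. H3K27Ac peaks with H3K4me3 in both replicates had a median fold enrichment of 5.38 in replicate 1 and 6.86 in replicate 2, and those without H3K4me3 4.47 and 4.26. Their median lengths were 607 and 810 bp with H3K4me3 in both replicates, and 440 and 355 bp without it. The replicates differed for peaks that met H3K4me3 in 1 replicate. Their median height in replicate 1 was 5.40 and their median length 802 bp, at or above the peaks with H3K4me3 in both replicates. In replicate 2 they lay between the other classes, at 4.78 and 523 bp. From the weakest to the strongest 20% of peaks, the share with H3K4me3 in both replicates went from 49.2 to 73.8% in replicate 1 and from 21.2 to 86.1% in replicate 2. In the 20% next above the weakest this share was lower, at 42.0 and 19.1%. Even among the strongest 20% of acetylation peaks, 12.5% and 7.32% carried no H3K4me3.

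**Figure D2:**
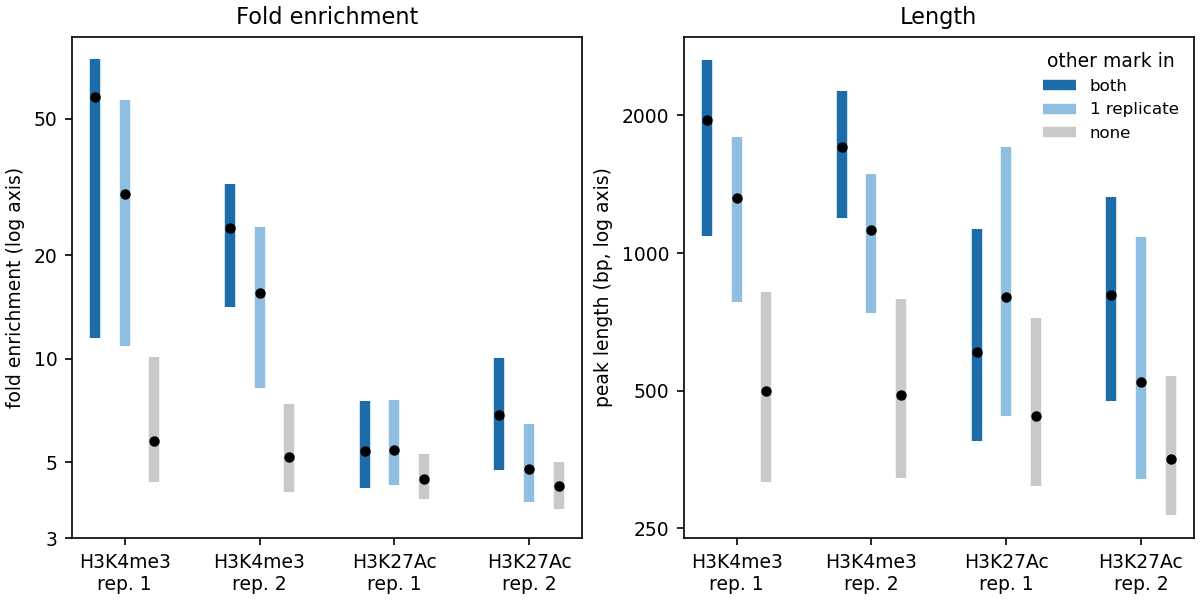
Fold enrichment (left, log axis) and peak length in bp (right, log axis) of the peaks of each P21 library by overlap with the other mark, with the median as a point and the middle 50% of peaks as a bar. H3K4me3 medians go from 57.9 and 24.0 with acetylation in both replicates to 5.74 and 5.17 without it, whereas the H3K27Ac medians stay between 4.26 and 6.86.

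The strongest peaks with both marks were marked at every stage. The H3K4me3 peak at chr12:102319933-102323026 (mm9) had a fold enrichment of 92.7 in replicate 1 and 72.9 in replicate 2, with H3K27Ac at 4.84 and 15.0. The peaks at chr2:118980941-118983376 and chr12:82045753-82048009 followed, with H3K4me3 at 103 and 54.5 and at 101 and 56.3. Their acetylation was 8.03 and 14.1 at the former and 4.54 and 16.5 at the latter. The median height of all H3K27Ac peaks was 4.90 in replicate 1 and 4.75 in replicate 2. Of the acetylation values of these peaks, 4.54 alone lay below the median of its library, and both replicate 2 values lay far above it. Each of these 3 regions overlapped both marks in both replicates at P0 and P14, and Brg1 at P0. The strongest H3K27Ac peaks with H3K4me3 were other regions. At chr9:62904843-62909070 acetylation was 28.8 and 23.5 and H3K4me3 26.9 and 18.0. This region had H3K4me3 of 4.15 and 5.45 at P0 and no P0 acetylation peak, and acetylation of 21.4 and 25.8 at P14. At chr7:87513599-87518411 acetylation was 25.2 and 26.6, and at chr11:78156112-78162258 it was 26.98 and 22.85, and both of these carried both marks at all 3 stages.

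The 3 longest H3K4me3 peaks found in both replicates all carried strong acetylation. The peak at chr3:17683558-17699818 was 16261 bp long in replicate 1 and 13802 bp in replicate 2, with H3K4me3 at 66.4 and 25.8. H3K27Ac replicate 1 gave a single overlapping peak, at 21.5, where replicate 2 gave 5 peaks, the highest at 22.4. The peaks at chr6:30116186-30131033 (14848 and 14632 bp) and chr14:65197928-65213483 (15556 and 9947 bp) were also among the 3 longest H3K27Ac regions, with acetylation peaks of 15296 and 10879 bp and of 15404 and 13762 bp. The remaining long acetylation region, chr3:87942124-87955133, held H3K27Ac peaks of 13010 and 14058 bp and H3K4me3 at 91.9 and 25.3. The long regions of both marks therefore coincided at 2 of 3 positions.

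The 3 strongest H3K4me3 peaks without acetylation at P21 carried acetylation in both P0 libraries. At chr13:24852925-24854173 H3K4me3 was 80.2 and 34.5 at P21 with no H3K27Ac peak in either replicate. The same position had H3K27Ac of 14.1 and 8.21 at P0, and at P14 a peak of 3.57 in replicate 2 alone. The peak at chr3:27051974-27053431 (H3K4me3 81.6 and 29.6) had P0 acetylation of 11.6 and 18.1 and 4.95 in P14 replicate 2. The peak at chr8:87212760-87214198 (63.9 and 37.7) had P0 acetylation of 5.37 and 4.26 and 7.53 in P14 replicate 2. H3K4me3 was present at P0 and P14 in both replicates at these 3 positions, Brg1 was present at P0, and none overlapped H3K27me3 in both P21 replicates. These 3 lie far above the median height of their class, 5.74 and 5.17.

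The 3 strongest acetylation peaks without H3K4me3 carried acetylation at P14 and not at P0. The peak at chr15:86639689-86644370 had H3K27Ac of 20.02 and 13.3 at P21 and 15.5 and 17.0 at P14, and no peak of either mark at P0. At chr6:30096179-30097261 the P21 values were 16.9 and 13.95 and the P14 values 19.0 and 12.7. At chr12:17724139-17728879 they were 14.8 and 15.7, and 10.04 and 15.6. None of the 3 had an H3K4me3 peak at P0 or P14 or an H3K27Ac peak at P0. Of the 3, chr6:30096179-30097261 alone overlapped a Brg1 peak at P0.

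The distance between the summits of the marks was measured where their peaks overlapped, a choice that itself limits the distance. A summit is the point of highest signal that the peak caller placed in a peak, and for each H3K4me3 peak the distance to the summit of the strongest overlapping H3K27Ac peak was taken. The median distance was 188 bp from H3K4me3 replicate 1 to H3K27Ac replicate 1, 93 bp from replicate 1 to replicate 2, 121 bp from replicate 2 to replicate 1, and 66 bp from replicate 2 to replicate 2. The mean of these 4 pairs was 117 ± 52.4 bp (SD, n = 4 pairs that share libraries). Between replicates of H3K4me3 the median was 62 and 69 bp in the 2 directions, and between replicates of H3K27Ac it was 128 and 133 bp. Taken from each H3K27Ac peak to the strongest overlapping H3K4me3 peak, the distances between marks were longer, with medians of 230 and 149 bp from H3K27Ac replicate 1 to H3K4me3 replicates 1 and 2, and 137 and 90 bp from H3K27Ac replicate 2. The replicate distances spanned 62 to 133 bp. Of the distances between marks, 3 of 4 lay within this range from H3K4me3 peaks and 1 of 4 from H3K27Ac peaks, and the others lay above it. Summits within 100 bp made up 36.6 to 62.1% of the overlapping H3K4me3 peaks, and summits more than 500 bp apart 11.2 to 27.5%. From H3K27Ac peaks, summits more than 500 bp apart made up 23.2 to 33.3%. Between replicates of 1 mark that share was 6.33 and 13.0% for H3K4me3 and 21.2 and 22.5% for H3K27Ac. Along the peak length, the middle 50% of summits lay between 39.3 and 59.7% in H3K4me3 replicate 1 and between 40.0 and 59.6% in replicate 2. For H3K27Ac the spread was wider, from 34.5 to 63.4% and from 35.0 to 62.7%.

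**Figure D3:**
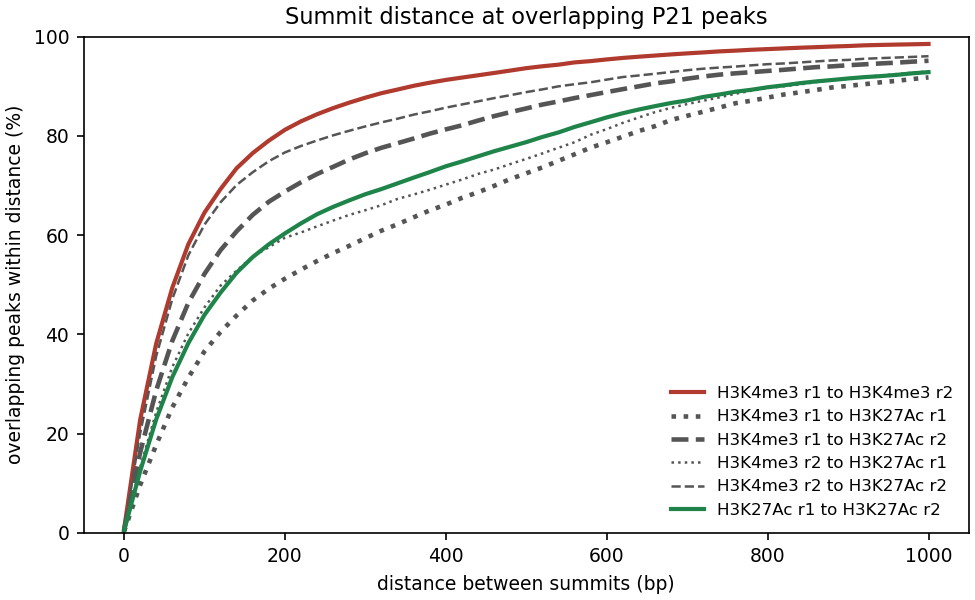
Cumulative share of overlapping P21 peaks (vertical axis, percent) whose summits lay within a given distance (horizontal axis, bp) for H3K4me3 replicates (red), H3K27Ac replicates (green) and the 4 pairs of different marks (grey, dotted to H3K27Ac replicate 1 and dashed to replicate 2, thick from H3K4me3 replicate 1 and thin from replicate 2). The thin dashed curve, with a median of 66 bp, runs beside the red curve at short distances, and the thick dotted curve, with a median of 188 bp, is lowest.

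Some H3K4me3 peaks overlapped several acetylation peaks. Of the H3K4me3 peaks that overlapped H3K27Ac, 22.8 to 25.7% in the 4 pairs overlapped at least 2 H3K27Ac peaks, and in 54.4 to 59.9% of those the H3K27Ac summits lay on both sides of the H3K4me3 summit. Between replicates of 1 mark the latter share was no lower than this range, at 57.8 and 81.1% for H3K4me3 and 68.4 and 63.5% for H3K27Ac. Conversely, 2.40 to 5.56% of overlapping H3K27Ac peaks met at least 2 H3K4me3 peaks. H3K4me3 replicate 1 shared 10.1 Mb with H3K27Ac replicate 1 and 19.9 Mb with replicate 2, and for H3K4me3 replicate 2 the shared lengths were 8.23 and 16.9 Mb.

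To count each position a single time, overlapping peaks of the 4 libraries were merged into 45354 regions. Both marks were present in both replicates at 7663 regions (16.9%). A further 6131 regions (13.5%) had H3K4me3 in both replicates and H3K27Ac in 1, which was replicate 2 at 6120 of them. H3K4me3 in both replicates without any H3K27Ac was found at 2634 regions (5.81%), and H3K27Ac in both replicates without any H3K4me3 at 4296 (9.47%). The most frequent pattern, 18409 regions (40.6%), was H3K27Ac in 1 replicate alone, from replicate 2 at 17422 of them. With the strongest 18534 peaks of each library, which equalised the lists, 7395 regions had both marks, 4732 had H3K4me3 alone and 2628 had H3K27Ac alone in both replicates. The order of the 2 single-mark patterns therefore turned with the length of the lists.

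H3K27me3 differed widely between the patterns. Domains of both P21 H3K27me3 replicates overlapped 2.66% of the regions with both marks, 32.7% of those with H3K4me3 in both replicates and H3K27Ac in 1, and 69.7% of those with H3K4me3 and no H3K27Ac, against 12.8% of all regions. At regions with H3K27Ac alone in both replicates the share was 0.140%. With equal list lengths the shares of the regions with both marks, with H3K4me3 alone and with H3K27Ac alone were 2.37, 62.3 and 0.0761%, in the same order. H3K4me3 and H3K27me3 at the same position is the combination of marks called bivalent, and in whole retinae the marks can lie on different cells. Counted over peaks, 51.6% (interval 50.4 to 52.8%) of H3K4me3 peaks without H3K27Ac in replicate 1 and 62.9% (interval 61.3 to 64.5%) in replicate 2 overlapped H3K27me3. With H3K27Ac in both replicates the shares were 2.12% (interval 1.85 to 2.42%) and 2.37% (interval 2.07 to 2.72%). The 2 H3K4me3 libraries differed by far less than the classes did. For acetylation peaks that overlapped H3K4me3 in both replicates, the share with H3K27me3 was 2.02% in replicate 1 and 13.7% in the larger replicate 2.

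Brg1 at P0 was most frequent where both marks were present at P21. The P0 Brg1-FLAG peaks overlapped 87.4% of the regions with both marks, 52.9% of those with H3K4me3 alone and 19.2% of those with H3K27Ac alone, against 42.0% of all regions. At regions with H3K4me3 in both replicates and H3K27Ac in 1 the share was 77.4%. There was 1 Brg1 library, so these shares have no replicate error. The regions with both marks were also longer, with a median of 2419 bp. The medians were 907.5 bp with H3K4me3 alone, 885.5 bp with H3K27Ac alone and 625 bp over all regions. An effect of length on the overlap with Brg1 was not tested.

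The earlier stages set the single-mark regions apart. Regions with H3K4me3 alone had H3K4me3 in both replicates at P0 in 94.8% and at P14 in 93.3% of cases. Their acetylation was rarer at P0, with 20.4%, and almost absent at P14, with 0.721%. Regions with H3K27Ac alone overlapped H3K27Ac of both replicates in 2.21% of cases at P0 and in 37.2% at P14, and H3K4me3 in 0.489% and 0.0233%. Regions with both marks overlapped H3K27Ac in 84.1% at P0 and 93.3% at P14. The P14 and P0 lists differ in length between replicates as the P21 lists do, and requiring both replicates limits each share to what the shorter list holds.

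A set of 1308 regions (2.88%) had H3K27Ac in both replicates and H3K4me3 in 1 only, which was replicate 1 at 1305 of them. Their H3K4me3 was weak, with a median fold enrichment of 4.93. Their median acetylation was 6.01 and 6.94, against 5.97 and 10.1 at regions with both marks in both replicates. It was thus level with those regions in replicate 1 and lower in replicate 2. H3K27Ac of both replicates was present at 71.8% of the 1308 regions at P14 but at 6.04% at P0. H3K4me3 of both replicates was present at 6.65 and 5.20%, and Brg1 at 37.4%. Their median length was 1764 bp. H3K4me3 replicate 2, which did not list 1305 of them, is the shorter H3K4me3 list.

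**Figure D4:**
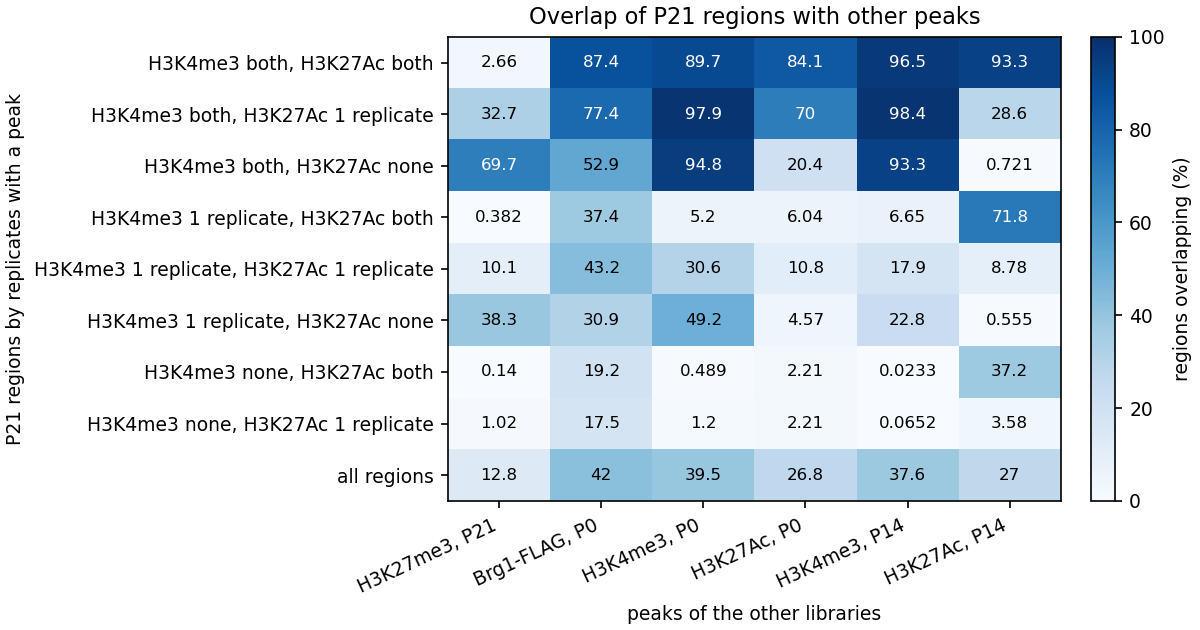
Share of merged P21 regions (percent, written in each cell and shown by shade) that overlapped H3K27me3 domains at P21, Brg1-FLAG peaks at P0 and both replicates of each active mark at P0 and P14 (columns), by the number of P21 replicates with a peak of H3K4me3 and of H3K27Ac (rows). H3K27me3 goes from 2.66% where both marks were present in both replicates to 69.7% where H3K27Ac was absent.

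The single-mark regions also differed in their surroundings. Regions with H3K27Ac alone lay a median of 8290 bp from the nearest H3K4me3 peak, and 38.7% lay within 5000 bp of one. The nearest other region with H3K27Ac alone was at a median of 3606 bp, closer than the nearest H3K4me3 peak. Regions with H3K4me3 alone lay a median of 52667 bp from the nearest H3K27Ac peak, and 51.6% lay more than 50000 bp away. Their nearest region of the same kind was at a median of 173172 bp.

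On the X chromosome, H3K4me3 without acetylation was more frequent than on any autosome. Of its 804 regions 142 (17.7%) had H3K4me3 alone in both replicates, against 5.59% of the 44547 autosomal regions and 4.33 to 8.14% on single autosomes. H3K27Ac alone was found at 24 X regions (2.99%), against 9.59% of autosomal regions and 7.94 to 11.5% on single autosomes. Regions with both marks made up 19.4% on X and 16.8% on the autosomes. The X chromosome lay outside the range of the 19 autosomes for all 3 patterns, although for both marks the highest autosome, at 19.2%, was nearly level with it. These shares are of all merged regions. Regions with H3K27Ac in 1 replicate alone were scarce on X (0.516% of them, against 1.77% of all regions). The regions with H3K4me3 in both replicates were split by H3K27Ac, and the X share was taken within each pattern. It was 2.04% of those with H3K27Ac in both replicates, 3.85% of those with it in 1 and 5.39% of those with it in none. Among regions with H3K4me3 in both replicates, those with both marks were thus relatively rare on X. By peaks, 4.36 and 5.01% of H3K4me3 peaks without H3K27Ac lay on X, against 1.68 and 1.89% of those with H3K27Ac in both replicates.

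The overlap of the marks at P21 was set beside that at the other stages. H3K4me3 peaks with H3K27Ac in both replicates made up 56.6 and 54.4% at P0, 48.4 and 48.4% at P14 and 41.1 and 45.5% at P21. For H3K27Ac peaks with H3K4me3 in both replicates the shares were 86.1 and 61.0% at P0, 65.6 and 36.6% at P14 and 54.9 and 40.3% at P21. Both P21 values lay below both P0 values for each mark. H3K4me3 peaks without H3K27Ac made up 27.3 and 29.4% at P0, 15.9 and 16.0% at P14 and 27.1 and 18.8% at P21. In these lists P21 thus lay below P0 and above P14. With the equal P21 lists the shares were 33.2 and 32.9%, above those of the full P0 lists. H3K27Ac peaks with H3K4me3 in 1 replicate made up 1.66 and 2.77% at P0, 2.77 and 2.47% at P14 and 9.94 and 8.18% at P21, so that P21 stood above both earlier stages. This class rests on the H3K4me3 lists, which at P21 differ in length by more than at P0 or P14. Over the 12 comparisons of shares between P21 and an earlier stage, 8 did not overlap, and the exact two-sided permutation p was 0.33 for each of these, the smallest that can be reached (0.5 after Benjamini-Hochberg adjustment).

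Where both marks were present, the relation of their heights differed between the pairs of libraries. At each of the 7663 regions found in all 4 libraries, the height of a library was its strongest peak. Across these regions the log2 heights of the H3K4me3 libraries had a Pearson correlation of 0.85, and those of the H3K27Ac libraries 0.32. Between marks the correlation was -0.09 and -0.08 for the H3K4me3 libraries with H3K27Ac replicate 1 and 0.30 and 0.48 with H3K27Ac replicate 2. Spearman correlations were 0.60 between the H3K4me3 libraries and 0.31 between the H3K27Ac libraries. Between marks they were -0.06 and -0.05 with H3K27Ac replicate 1 and 0.27 and 0.54 with replicate 2. By both measures, H3K27Ac replicate 2 was closer to H3K4me3 replicate 2 than to H3K27Ac replicate 1. A loose relation of the marks thus cannot be told apart from poor agreement of the H3K27Ac replicates. The relation of the 2 marks thus depended on the acetylation library, and regions are not independent replicates. The median heights over these regions were 66.6 and 25.4 for H3K4me3 and 5.97 and 10.1 for H3K27Ac.

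Heights of 2 antibodies share no scale, so each height was divided by the median of its library over these regions, and the log2 values of the marks were compared with limma. A positive difference means that H3K27Ac was higher relative to its own median than H3K4me3 was relative to its own. At an adjusted p under 0.05 (limma, Benjamini-Hochberg), H3K27Ac was relatively higher at 1101 regions (14.4% of those tested) and H3K4me3 at 6 (0.0783%). The differences ranged from -1.27 to 4.23 on the log2 scale, with a median of 0.05 over all regions. Both libraries of one mark lay above both of the other at all 1107 called regions, and at 3716 of the 7663 tested. Without scaling, where the difference holds the whole gap between the antibodies, 3 regions were called with H3K27Ac higher and 5956 with H3K4me3 higher. Quantile normalization, which makes the distributions of the libraries alike, called 176 and 3, and the fit without H3K4me3 replicate 2 called 2190 and 1. The fit without H3K27Ac replicate 2 called 1512 and 237. When regions with a peak in at least 2 of the 4 libraries were tested with a pseudocount at the 5th percentile of the heights, 6052 regions were called with H3K27Ac relatively higher and 1796 with H3K4me3 relatively higher. The number of calls thus depended on the regions and pseudocount, on the scaling and on single libraries, and the prevailing direction turned without scaling.

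The heights that chose the 1101 regions are given as a description. The H3K4me3 libraries varied more over the tested regions, with SDs of the log2 height of 0.92 and 0.90 against 0.64 and 0.52 for H3K27Ac. The median H3K4me3 heights of the 1101 regions were 14.2 and 6.05, against 66.6 and 25.4 over all tested regions, while their median H3K27Ac heights were 8.48 and 9.06 against 5.97 and 10.1. The region with the largest difference was chr9:96605334-96609177. Its H3K4me3 was 4.19 and 5.11 and its H3K27Ac 17.7 and 15.2, a difference of 4.23 ± 0.461 (moderated SE, n = 2 libraries per mark, adjusted p = 2.29e-08, limma). The fit had 2 residual and 39.6 prior degrees of freedom, so this SE was set mostly by the other regions and not by the libraries at this region. With quantile normalization the adjusted p of this region was 0.0439 (limma). Next came chr12:111918823-111922072, with H3K4me3 at 5.47 and 3.30 and H3K27Ac at 15.5 and 14.4 (4.22 ± 0.426, adjusted p = 9.49e-09, limma). The regions chr10:19913309-19917761 and chr5:116134028-116138778 had differences of 4.12 and 4.10, with H3K4me3 between 3.83 and 6.56 and H3K27Ac between 15.5 and 17.6. The other 4 named regions were chr8:123142800-123149399, chr8:13178593-13183964, chr7:119968552-119972096 and chr12:118917245-118923821, with differences between 3.86 and 3.95. Among all 8 regions H3K4me3 did not exceed 8.46 in any library and H3K27Ac was at least 10.8 in every library. All 8 passed the threshold under every alternative run except without scaling, under which 3 of them did.

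At the 6 regions called with relatively higher H3K4me3, acetylation was low and H3K4me3 high. The region chr19:40968536-40970329 had H3K4me3 at 77.2 and 58.5 and H3K27Ac at 3.51 and 7.90, a difference of -1.27 ± 0.425 (adjusted p = 0.0347, limma). The others were chr7:20188701-20190164, chr4:155483207-155484947, chr10:79577575-79580906, chr17:27976174-27977840 and chr6:126888865-126891082, with differences between -1.25 and -1.17 and adjusted p between 0.0298 and 0.0498 (limma). Across the 6, H3K4me3 was 75.1 to 95.7 in replicate 1 and 26.2 to 58.5 in replicate 2, and H3K27Ac was 2.81 to 4.12 and 4.50 to 8.64. None of these 6 passed the threshold with the mean height per region, without H3K4me3 replicate 2, without H3K27Ac replicate 1, or in the fit that added regions lacking a peak in some libraries together with a pseudocount.

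**Figure D5:**
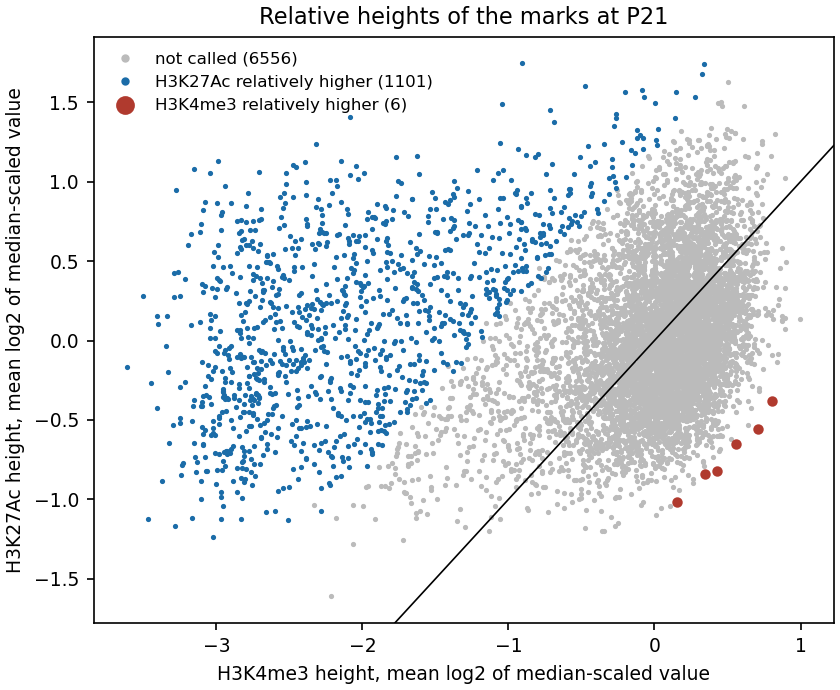
Mean log2 height of H3K4me3 (horizontal axis) and of H3K27Ac (vertical axis) at the 7663 regions with a peak in all 4 P21 libraries, each library divided by its median over these regions, with 1101 regions called relatively higher in H3K27Ac (blue), 6 in H3K4me3 (red) and the line of equal relative height. The blue points lie to the left, at low H3K4me3, and span almost the whole range of H3K27Ac.

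The 1101 regions had low median H3K4me3 heights, and their median acetylation was above that of all tested regions in replicate 1 alone. They also differed in readouts that did not enter the test. Whether these differences follow from their low H3K4me3 was not tested. H3K4me3 of both replicates was present at 34.8% of the 1101 regions at P0 and 75.3% at P14, against 89.7 and 96.5% of all 7663. H3K27Ac of both replicates was present at 25.3% at P0 and 85.7% at P14, against 84.1 and 93.3%. Brg1 was present at 57.5% against 87.4%, and H3K27me3 at 0.999% against 2.66%. In the P14 libraries, the difference of the relative heights could be measured at 746 of the 1101 regions and was above 0 at 745 of them, with a median of 1.82, against 53.7% of all measured regions. In the P0 libraries it was above 0 at 202 of 222, with a median of 1.19, against 53.9%. The median scaling of those libraries was computed in the same way over their own regions.

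The difference between the marks was tested against the earlier stages with the interaction of mark and stage. Against P0, 6368 regions had a peak in all 8 libraries and 1 was called (0.0157%, adjusted p under 0.05, limma), with H3K27Ac relatively higher at P21. In the other direction 0 were called (0%), and 480 regions passed an unadjusted p of 0.05. The called region was chr8:60278354-60279329. Its H3K27Ac was 2.84 and 3.12 at P0 and 11.6 and 11.1 at P21, and its H3K4me3 was 9.85 and 13.9 at P0 and 9.27 and 4.91 at P21. Acetylation was higher at P21 in both replicates, and H3K4me3 was not. The interaction was 3.27 ± 0.542 on the log2 scale (moderated SE, 2 libraries per mark and stage, adjusted p = 0.00271, limma). It passed the threshold neither without H3K4me3 replicate 1 of P21 (adjusted p = 0.0526, limma) nor without H3K27Ac replicate 1 of P21 (adjusted p = 0.0926, limma). Regions that gained or lost a mark entirely between P0 and P21 do not enter this test, since they lack a peak in some library. Against P14, limma called 0 of 6932 regions (0%), and 44 passed an unadjusted p of 0.05. The 0 calls do not show that the marks stood in the same relation at both stages.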

How the data were processed

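ChIP-Seq peak lists of wild-type P21 retinae (2 H3K4me3 and 2 H3K27Ac libraries) were compared. The authors deposited peaks per library, not pooled, with fold enrichment at the summit (a ratio), a −log10 q-value and the summit's distance from the peak start. The deposited H3K27me3 domains carry a whole-number score whose meaning is not given in the sources used here, and their positions alone were used. Per the labels and the submitters' processing notes, the build was mm9, and the tools were CASAVA, BWA 0.5.9-r26, Picard 1.65, SAMtools, R 2.14.0, MACS2 2.0.9, bedtools 2.17.0 and SICER 1.1, with no role or order given. How input libraries were used is not given in the sources used here. The deposited −log10 q-values of the P21 libraries start at 1.31 to 1.41. The lists keep no read counts, so weak peaks are missing from shallower libraries to an unknown extent. Groups and replicate numbers came from the sample labels, and the P14 H3K4me3 libraries are titled replicates 2 and 3.

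Overlaps of at least 1 bp were found in Python 3.11.15 (pandas 2.3.3, numpy 2.4.6) and checked against bedtools 2.31.1 for 42 ordered pairs of libraries, of which 0 differed. A readout counted as present when both of its replicates overlapped, and Brg1 had 1 library. Where several peaks overlapped, the strongest gave the summit. Intervals and exact permutation tests used scipy 1.17.1. Heights were the highest fold enrichment per merged region and library, divided by the library median over regions found in every library. They were fitted on the log2 scale with limma 3.58.1 in R 4.3.3 (lmFit, eBayes) and Benjamini-Hochberg adjustment over all tested regions, without a replicate block. The fits were tested on simulated data. Plots used matplotlib 3.10.9.

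Named regions were the 8 with the largest and the 8 with the smallest difference among called regions without overlap of the marks (6 existed), the called regions of each interaction (up to 4 per direction), the 3 strongest peaks with the other mark in both or in no replicate, and the 3 longest peaks of each mark, all found in both replicates. The members, the patterns and the named-region rule were chosen with earlier results of these data known. Peaks were not assigned to genes. Libraries of P12, Brg1-deficient retinae and the other H3K27me3 libraries were not used here.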

Additional observations from a re-analysis of the deposited data

Results flagged for a closer look

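The difference between the marks changed between P0 and P21 at chr8:60278354-60279329 (mm9), by the test of the interaction of mark and stage. The change was 3.27 on the log2 scale, with relative H3K27Ac at -1.85 and -1.84 in the P0 libraries and 1.004 and 0.09 in the P21 libraries, and relative H3K4me3 at -2.08 and -1.59 at P0 and -2.93 and -2.50 at P21. The acetylation of both P21 libraries lay above that of both P0 libraries, and the H3K4me3 of both P21 libraries lay below. Over the alternatives without 1 library the change was between 2.78 and 3.72, with an adjusted p between 3.79e-05 and 0.0926 (limma). The groups of 2 libraries were too small to look for single outlying libraries.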

How the results depend on the processing

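Of 99 values recomputed for the comparisons, 75 stayed within the spread of the replicates or within 1.5 times and 24 moved. The 75 include values that could not move. Leaving out a library of the mark whose peaks are counted returns the share of its other library, which always lies within that spread. Of the 154 values for named regions none changed sign and 46 lost the threshold. That none changed sign was partly fixed by the choice of regions. The named P21 regions had both libraries of one mark above both of the other, so leaving out 1 library could hardly turn the sign. The replicate block leaves the estimated difference unchanged. The balance of the calls at P21 and the order of the single-mark regions did turn, as given below. The cause was not tested where values moved. The share of H3K4me3 peaks without H3K27Ac (mean 23.0%) was 7.16% with the strongest 50% of peaks of each library and 33.0% with equal lists, and 18.8 to 56.4% with each library left out. H3K4me3 peaks with H3K27Ac in both replicates (43.3%) ranged from 41.1 to 76.7% in this way. For H3K27Ac peaks with H3K4me3 in both replicates (47.6%), equal lists gave 62.9%. The share with H3K27me3 ranged, with each H3K27me3 replicate left out, from 2.98 to 3.86% at regions with both marks, from 70.8 to 73.8% at regions with H3K4me3 alone (62.3% with equal lists) and from 0.140 to 0.279% at regions with H3K27Ac alone. Equal lists gave 4732 and 2628 such single-mark regions, against 2634 and 4296. The equal lists for regions and the left-out H3K27me3 replicates were chosen after seeing the data, as were peaks found in both replicates. The latter moved no share beyond the spread of the replicates, which was wide. H3K27Ac peaks with H3K4me3 in both replicates went from 47.6 to 55.9% and those without it from 43.3 to 33.8%. H3K4me3 peaks without H3K27Ac went from 23.0 to 17.5%. The limma calls at P21 (1107) numbered 7848 (1796 with H3K4me3 relatively higher) with regions that had a peak in at least 2 of the 4 libraries and a pseudocount at the 5th percentile, changed together, 179 with quantile normalization, 5959 without scaling (5956 with H3K4me3 higher), and 786 to 2191 with each library left out, when the lone library of a mark is assumed to vary like the pair of the other mark. The interaction with P0 (1) gave 0 with a peak in at least 50% of the libraries and that pseudocount, 0 without scaling (53 at an unadjusted p under 0.05), 2 with the mean height and 0 to 75 with each library left out. The 75 came without H3K27Ac replicate 2 of P21, and 6 without H3K4me3 replicate 1 of P0. The interaction with P14 gave 0 calls under every alternative run. With the replicate block, limma called 1169 regions at P21, 1106 of them shared with the 1107, and 15 against P0. Replicates 1 and 2 of the marks deviated together with a correlation of 0.22 across regions, but there are 2 pairs and the labels tie no numbers to animals, so the block was not used. No paired analysis was possible for P14 because by its titles H3K4me3 shares replicate number 2 alone with P21. The deposited lists number these P14 libraries 1 and 2, and no fit used that numbering. The depth of the lists is unknown and limits every absent peak.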
